A study of Mus musculus with 8 samples.

Results

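The genes described here are 8 genes of the NADPH oxidases and of phagocyte oxidant production, 8 of the 24584 genes in the lung RNA-seq table, chosen by gene symbol: Cybb, Cyba, Ncf1, Ncf4, Rac2, Nox4, Duox1 and Xdh. The study gave mice lipopolysaccharide (LPS), a cell wall component of Gram-negative bacteria that sets off a sepsis-like lung injury, with or without tangeretin (Tan), a flavone found in citrus peel, and asked how tangeretin acts on the injury. The animals were male ICR mice aged 6 to 8 weeks, labelled as wild type. The LPS group (n = 4) received 5 mg/kg Escherichia coli O111:B4 LPS into the peritoneum. The LPS + Tan group (n = 4) received the same LPS and, 30 min before it, 50 mg/kg tangeretin by the same route. Lungs of both groups were taken 12 h after LPS, so all 8 samples carry the LPS treatment, and neither an untreated group nor a group given tangeretin alone is used here. The tables hold 38895654 to 39931970 counts per sample. The sources do not say whether each sample is 1 animal, so p-values measure only the spread between these samples, which may be technical. Squared deviations between samples of a group were 9.17 to 32.1 times what counting noise alone gives.

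NADPH oxidases move electrons from NADPH across a membrane onto oxygen and thereby make superoxide. In neutrophils and macrophages the enzyme is assembled on demand: a membrane pair, gp91phox (Cybb) and p22phox (Cyba), is joined by cytosolic proteins, among them p47phox (Ncf1) and p40phox (Ncf4), and by the GTPase Rac2, and the burst that follows kills engulfed microbes and can also injure the lung. Nox4 is a constitutively active relative found mainly outside leukocytes, Duox1 makes hydrogen peroxide at the surface of airway epithelium, and xanthine dehydrogenase (Xdh) can pass electrons to oxygen in its oxidase form while it breaks down purines.

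The lung label was checked against marker genes. The surfactant gene Sftpc read 4522 ± 1085 CPM (counts scaled to the effective library size, mean ± SD, n = 4) in LPS and 4859 ± 1554 CPM in LPS + Tan, and the club cell gene Scgb1a1 read 15573 ± 2633 and 13853 ± 2485 CPM. Of all the markers looked at, Krt5, a basal cell keratin, was nearest to absent, with a single count over the 8 samples. Neutrophil markers ranged widely, from S100a9 at 2136 ± 340 CPM in LPS and 2164 ± 403 CPM in LPS + Tan down to Ly6g at 11.2 to 25.6 CPM over the 8 samples. In whole lung, fewer cells of a type and less RNA per cell cannot be told apart.

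Levels of different genes were compared per transcript length, in FPKM (counts divided by gene length and library total, given as mean ± SD, n = 4). Xdh stood highest at 374 ± 53.4 FPKM in LPS and 305 ± 52.2 FPKM in LPS + Tan. Cyba followed at 175 ± 12.5 and 174 ± 17.3 FPKM, and then Ncf1 at 94.8 ± 9.71 and 93.6 ± 10.5 FPKM. Next came Rac2 (67.7 ± 11.5 and 68.9 ± 13.8 FPKM), Cybb (68.1 ± 1.58 and 65.3 ± 15.9 FPKM) and Ncf4 (50.8 ± 5.32 and 55.7 ± 10.7 FPKM). Within each of the 8 samples Xdh lay above Cyba, Cyba above Ncf1 and Ncf1 above Rac2, although the lowest Ncf1 sample, at 83.5 FPKM, was just under the highest Rac2 sample, at 83.9 FPKM. Rac2 and Cybb changed places between samples, and Ncf4 was below both in each sample. Nox4 was lower than all of them at 18.0 ± 6.85 and 21.8 ± 5.48 FPKM. Duox1 closed the order at 0.00719 ± 0.00710 FPKM in LPS and 0.00825 ± 0.00892 FPKM in LPS + Tan. Xdh ranked 150th and Cyba 321st among all 24584 genes by mean FPKM, whereas Nox4 ranked 3197th.

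**Figure D1:**
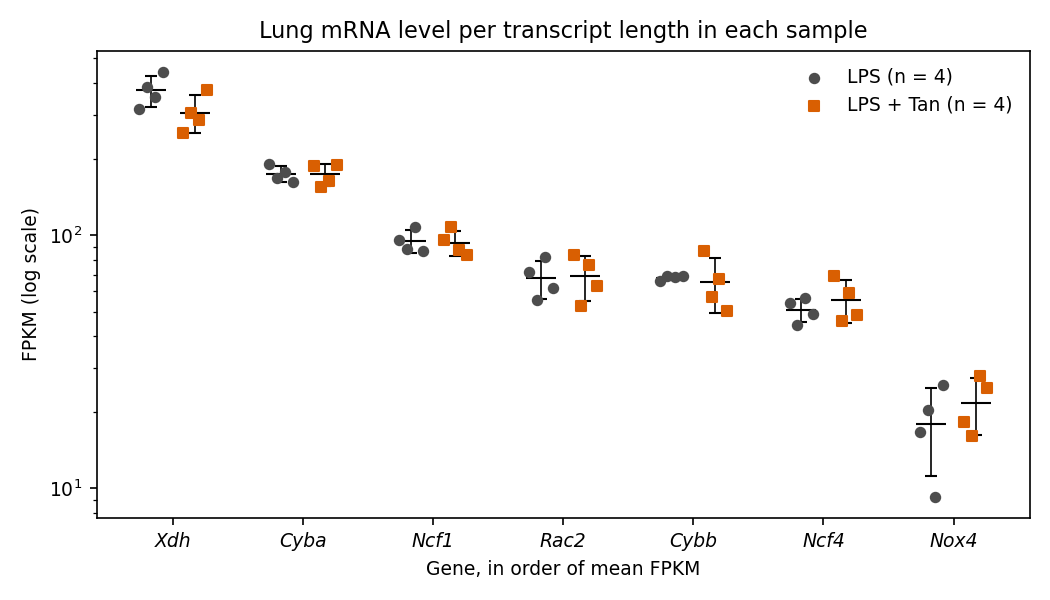
FPKM on a log scale for the 7 tested members, in order of their mean, with LPS samples as circles and LPS + Tan samples as squares (n = 4 each); horizontal bars are means and whiskers 1 SD. The groups overlap for each gene, from Xdh (253 to 442 FPKM over the 8 samples) down to Nox4 (9.29 to 27.8 FPKM).

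The comparison of LPS + Tan with LPS asks which of these genes differ when tangeretin precedes LPS. None of the 7 members that could be tested differed beyond the spread between samples. Of the 7, 5 had a lower and 2 a higher mean level in LPS + Tan, and the CPM of the groups overlapped for 8 of 8 members. A gene was called when edgeR's quasi-likelihood test gave an unadjusted p below 0.05. By that rule 0 of 7 tested members were called, beside 5.12% of the 15706 genes tested, of which 2.25% were lower and 2.87% higher in LPS + Tan. DESeq2 called 1 member, Xdh, beside 4.41% of the genes it tested, and limma-voom called 0 beside 5.16%. At the study's own thresholds, which add an absolute log2 fold change above 1, the count was 0 members beside 0.649% of all genes, and at an adjusted p below 0.05 it was 0 members beside 0% of all genes by edgeR. CPM without overlap between the groups was found for 0 members beside 2.73% of all genes. The median log2 fold change of the 7 members was −0.044, beside 0.0070 for all tested genes. Its sign was not stable: it was −0.11 without LPS replicate 2 and 0.021 without LPS replicate 3, and also above 0 without LPS replicate 1 (0.0020) or LPS + Tan replicate 2 (0.0029). With shares of this size, a count of 0 among 7 genes lies near the background and says little about these genes as a set.

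**Figure D2:**
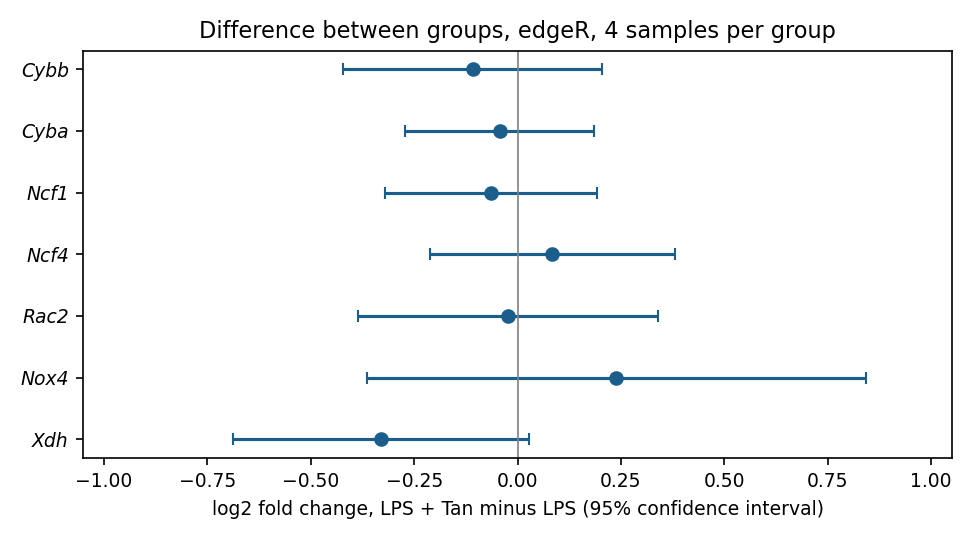
Log2 fold change of LPS + Tan over LPS by edgeR for the 7 tested members, with points as estimates and bars as 95% confidence intervals (n = 4 per group). Each interval includes 0, with Xdh nearest to excluding it at −0.69 to 0.027 and Nox4 widest at −0.36 to 0.84.

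Cybb encodes the catalytic, electron-carrying subunit of the phagocyte oxidase. It read 321, 329, 344 and 335 CPM in LPS replicates 1 to 4 and 404, 274, 307 and 248 CPM in LPS + Tan replicates 1 to 4. The LPS samples lay within a narrow band and the LPS + Tan samples fell on both sides of it, 1 above and 3 below, with an SD of 9.52 CPM in LPS and 68.5 CPM in LPS + Tan. Whether the spread itself differed was not tested. The log2 fold change was −0.11 (95% confidence interval −0.42 to 0.20, unadjusted p of 0.458). LPS + Tan replicate 1, the highest sample, weighs on this value: without it the log2 fold change was −0.27 (unadjusted p of 0.0242, adjusted p = 0.999939 by edgeR). Without LPS + Tan replicate 4, the lowest sample, the log2 fold change was −0.017 (unadjusted p of 0.896 by edgeR). Adjusted p ranged from 0.878 to 0.999939 over all alternatives.

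Cyba encodes the membrane partner that stabilises both gp91phox and NOX4. It read 147, 127, 141 and 124 CPM in LPS and 138, 118, 118 and 149 CPM in LPS + Tan. The highest and the lowest sample, at 149 and 118 CPM, were both in LPS + Tan with the LPS samples between them, and Cyba had the smallest variation of the members, a coefficient of variation of 9.54% over the 8 samples. Its log2 fold change of −0.044 (95% confidence interval −0.27 to 0.19) turned to between 0.0011 and 0.0029 when LPS replicate 1, LPS + Tan replicate 2 or LPS + Tan replicate 3 was left out. Per length there was more Cyba than Cybb in each sample, from 2.16 times in LPS + Tan replicate 1 to 3.80 times in LPS + Tan replicate 4.

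Ncf1 encodes p47phox, the subunit that is phosphorylated when a phagocyte is activated and then brings the cytosolic subunits to the membrane. It read 270, 242, 312 and 242 CPM in LPS and 256, 296, 230 and 238 CPM in LPS + Tan. The highest value was in LPS replicate 3 and the next in LPS + Tan replicate 2, with the other 6 samples between 230 and 270 CPM. Its log2 fold change was −0.064 (95% confidence interval −0.32 to 0.19, unadjusted p of 0.592) and was 0.021 without LPS replicate 3.

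Ncf4 encodes p40phox, which binds a phosphoinositide of the phagosome and sustains the burst there. It read 93.4, 75.2, 100 and 84.2 CPM in LPS and 115, 78.3, 95.9 and 85.2 CPM in LPS + Tan. LPS + Tan replicate 1 was the highest and LPS replicate 2 the lowest sample, and the remaining samples of both groups interleaved. The log2 fold change was 0.084 (95% confidence interval −0.21 to 0.38, unadjusted p of 0.542), and −0.033 without LPS + Tan replicate 1.

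Rac2 encodes the GTPase of blood cells that switches the assembled oxidase on. It read 220, 167, 259 and 190 CPM in LPS and 247, 159, 219 and 198 CPM in LPS + Tan. The second replicate was lowest in both groups, although replicate numbers of the groups are not known to be linked. The log2 fold change of −0.024 (95% confidence interval −0.39 to 0.34) had no stable sign, as it was 0.026 with total counts in place of scaled libraries and 0.097 without LPS replicate 3.

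Relative to Cybb, Ncf4 stood at 0.747 ± 0.0878 per length in LPS and 0.862 ± 0.0787 in LPS + Tan (SD, n = 4), and the groups overlapped, with LPS replicates 1 and 3 (0.818 and 0.821) above LPS + Tan replicates 1 and 2 (0.799 and 0.804). The widely expressed Rac1 exceeded Rac2 per length in all 8 samples, by 2.86 to 4.53 times.

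Nox4 makes mostly hydrogen peroxide and is regulated largely through its amount. It read 107, 127, 60.8 and 162 CPM in LPS and 111, 101, 165 and 161 CPM in LPS + Tan. LPS replicate 3 was the lowest, and 3 samples from both groups were close together near 160 CPM. Nox4 varied most among the tested members, 2.72 times between its lowest and highest sample, and its interval was accordingly the widest: a log2 fold change of 0.24 (95% confidence interval −0.36 to 0.84, unadjusted p of 0.399), which allows a level from 22.3% lower to 79.3% higher in LPS + Tan. The value rested on single samples, as it was 0.030 without LPS replicate 3 and 0.46 without LPS replicate 4.

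Duox1 was almost absent. It had 1, 0, 2 and 4 counts in LPS and 1, 5, 2 and 0 counts in LPS + Tan, 7 and 8 in all, and did not pass the filter on low counts. Without that filter the log2 fold change of Duox1 was 0.13 by edgeR (unadjusted p of 0.901) and 0.14 by DESeq2 (unadjusted p of 0.918), values that rest on very few counts. The gene shares sequence positions with Duoxa1, its maturation factor, in the RefSeq annotation, and that gene held only 7 and 1 counts.

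Cybb and Nox4 together made up nearly all transcripts of the catalytic subunits per length. Cybb contributed 79.4%, 76.9%, 87.7% and 72.8% of their summed FPKM in LPS and 81.9%, 77.8%, 70.1% and 66.3% in LPS + Tan. Nox4 contributed 20.4 ± 6.34% in LPS and 25.3 ± 7.07% in LPS + Tan (SD, n = 4). The lowest Cybb shares were in LPS + Tan replicates 3 and 4, but LPS replicate 4 lay between these and the rest, so the groups overlapped. Nox1, Duox1 and Duox2 each stayed below 1% of the sum in each sample, the highest being Nox1 with 0.809% in LPS + Tan replicate 3.

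Xdh encodes the enzyme that oxidises hypoxanthine and xanthine to urate. It read 1484, 1773, 1695 and 2056 CPM in LPS and 1134, 1401, 1248 and 1788 CPM in LPS + Tan. In LPS + Tan, 3 of 4 samples were below the lowest LPS sample, while LPS + Tan replicate 4 was above 3 of the 4 LPS samples, so the groups overlapped. The mean was 20.5% lower in LPS + Tan, a log2 fold change of −0.33 (95% confidence interval −0.69 to 0.027), with an unadjusted p of 0.0662 and adjusted p = 0.924 by edgeR. Xdh had the lowest p of the 7 members, rank 1080 among the 15706 tested genes, and whether it was called depended on the method and on single samples. DESeq2 gave a log2 fold change of −0.34 with an unadjusted p of 0.0396 and adjusted p = 0.758. With the replicate number as a replicate block in the edgeR fit the log2 fold change was −0.34 with an unadjusted p of 0.0202 and adjusted p = 0.925. Without LPS + Tan replicate 4 it was −0.47 with an unadjusted p of 0.00623 and adjusted p = 0.331 by edgeR, and without LPS replicate 1 it was −0.40 with an unadjusted p of 0.0445. The value was below 0 in each of 18 alternatives, from −0.47 to −0.24, with adjusted p from 0.331 to 0.999939.

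Across the 8 samples 2 of 21 member pairs moved together or apart in log2 CPM. Ncf4 and Rac2 moved together, with Pearson r = 0.92 (exact permutation p = 0.00126, adjusted p = 0.0133 over 21 pairs) and Spearman rho = 0.93 (exact permutation p = 0.00223, adjusted p = 0.0234). Both were lowest in the second replicate of either group and high in LPS replicate 3 and LPS + Tan replicate 1. Without LPS replicate 2 and LPS + Tan replicate 1, the samples farthest from the median of Ncf4, r was 0.97, and with each group centred on its own mean it was 0.96. Of the 10 pairs among the 5 phagocyte oxidase members only this one passed, and r of the 2 membrane subunits Cybb and Cyba was 0.035 (exact permutation p = 0.936, adjusted p = 0.936) with Spearman rho = 0.024 (exact permutation p = 0.977). For Cybb and Cyba r was 0.58 without LPS + Tan replicates 1 and 4, the samples farthest from the median of Cybb.

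Ncf1 and Nox4 moved in opposite directions. Pearson r was −0.93 (exact permutation p = 9.92e-05, adjusted p = 0.00208 over 21 pairs) and Spearman rho was −0.93 (exact permutation p = 0.00223, adjusted p = 0.0234). LPS replicate 3 held the highest Ncf1 and the lowest Nox4, and LPS + Tan replicate 3 the lowest Ncf1 and the highest Nox4. Without LPS replicate 3 and LPS + Tan replicate 2, the samples farthest from the median of Ncf1, r was −0.89, and it was −0.93 with the groups centred. The relation was therefore present within the groups and did not separate them. On log2(FPKM + 1) r was −0.88 for Ncf1 with Nox4 and 0.92 for Ncf4 with Rac2, and 2 pairs passed again.

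**Figure D3:**
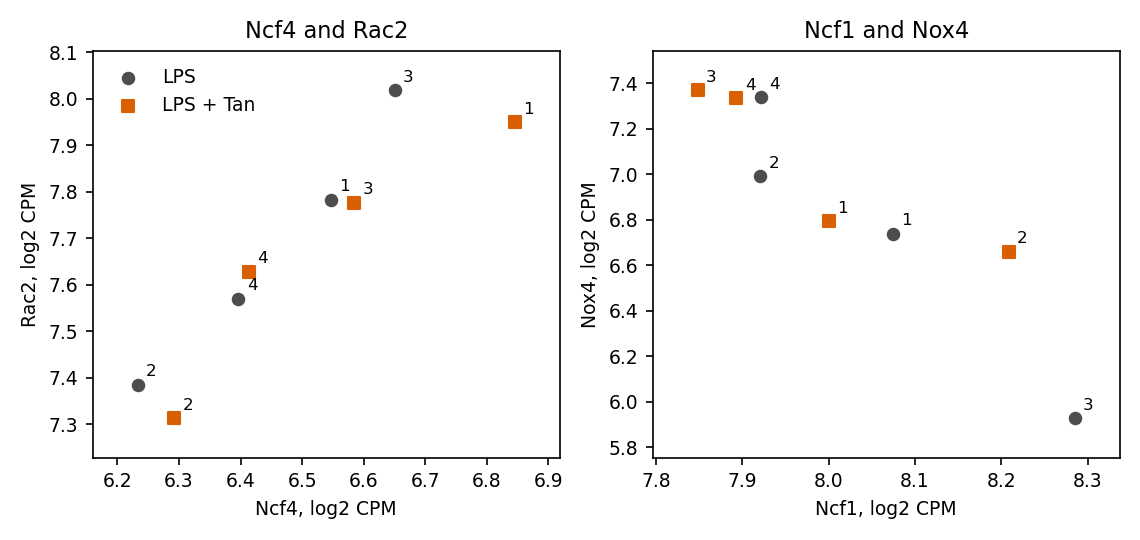
Log2 CPM of Rac2 against Ncf4 on the left and of Nox4 against Ncf1 on the right, with each point a sample numbered by its replicate (circles LPS, squares LPS + Tan, 8 samples in all). Points of both groups lie along one rising band on the left (r = 0.92) and one falling band on the right (r = −0.93).

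In the genome (RefSeq, GRCm38.p6) the 8 members lie on 7 chromosomes, and the only pair on the same one is Ncf4 and Rac2. Ncf4 spans chr15:78244164-78262582 and Rac2 chr15:78559169-78572783, 297 kb apart with 16 annotated genes between them, 10 of these protein-coding. Ncf1 (chr5:134220053-134229628) and Nox4 (chr7:87244430-87398710) are on different chromosomes. The others are Cybb (chrX:9435252-9487766), Cyba (chr8:122424771-122432940), Duox1 (chr2:122313010-122347972) and Xdh (chr17:73883895-73950397). Cybb, Ncf1 and Xdh each share positions with 1 other annotated gene, namely Gm33784, LOC115490142 and Gm18068, and how shared reads were counted is not given in the sources used here.

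Of the 8 members 5 matched the RefSeq promoter sequences: Cybb, Cyba, Ncf1, Nox4 and Duox1. The 250 bases before an annotated start of Ncf1 and Nox4 are shown because these were the members that moved in opposite directions. The Nox4 stretch lies inside the Nox4 span given above and the Ncf1 stretch overlaps the end of the Ncf1 span, so the starts they precede are not the first positions of these genes. Neither stretch overlaps an exon of the GENCODE vM21 annotation. Capitals mark the GC box GGGCGG, searched on both strands (CCGCCC on the other), which occurs in 32.7% of 32851 upstream stretches of this length. The Ncf1 stretch is chr5:134229626-134229875 on the minus strand and the Nox4 stretch chr7:87246399-87246648 on the plus strand, both printed 5′ to 3′ along the gene.
Ncf1: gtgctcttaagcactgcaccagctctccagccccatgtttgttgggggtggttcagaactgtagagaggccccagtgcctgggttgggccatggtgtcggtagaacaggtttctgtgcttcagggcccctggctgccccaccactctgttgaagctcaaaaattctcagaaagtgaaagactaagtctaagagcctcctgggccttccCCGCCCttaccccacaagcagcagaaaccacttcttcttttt
Nox4: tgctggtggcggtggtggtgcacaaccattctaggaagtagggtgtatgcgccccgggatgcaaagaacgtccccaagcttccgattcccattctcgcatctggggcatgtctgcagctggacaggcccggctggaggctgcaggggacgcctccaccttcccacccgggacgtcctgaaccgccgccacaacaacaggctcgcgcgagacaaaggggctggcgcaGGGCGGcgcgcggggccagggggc

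Each stretch holds 1 GC box match. They differ in base composition: the Nox4 stretch is 67.2% G or C with 20 CG steps, and the Ncf1 stretch is 54.4% G or C with 2 CG steps, beside medians of 52.4% and 6 over all stretches. The letters GAGGAA, the core read by the myeloid factor PU.1, are in 23.3% of all stretches and in neither of these, the TATA box letters TATAAA are in 12.4% of all and in neither, and the letters CCAAT are in 33.8% of all and in neither. These are matches of letters in a window and say nothing about binding.

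Member levels were also set against the 11 marker lists, each list as the mean log2 CPM of its tested genes. Of 77 combinations 0 had an adjusted p below 0.05 and 4 had an unadjusted exact permutation p of Pearson r below 0.05. Of these, Ncf4 and Rac2 both ran with the neutrophil list, at r = 0.83 (exact permutation p = 0.0111, adjusted p = 0.288) with Spearman rho = 0.90 (exact permutation p = 0.00456, adjusted p = 0.176) for Ncf4, and at r = 0.84 (exact permutation p = 0.0112, adjusted p = 0.288) with Spearman rho = 0.86 (exact permutation p = 0.0107, adjusted p = 0.275) for Rac2. Without LPS replicates 2 and 3, r was 0.74 and 0.71. On log2(FPKM + 1) 1 of the 77 combinations passed by Spearman rho, Ncf4 with the neutrophil list at rho = 0.98 (exact permutation p = 0.000397, adjusted p = 0.0306), and 0 passed by Pearson r, which was 0.84 for it (exact permutation p = 0.00828, adjusted p = 0.300). The summed level of the 12 neutrophil markers was 5450, 4691, 6515 and 5691 CPM in LPS and 6259, 4468, 5907 and 5813 CPM in LPS + Tan, and S100a9 made up 38.4% of it. It was lowest in the second replicate of each group, as Ncf4 and Rac2 were, and high in LPS replicate 3 and LPS + Tan replicate 1. None of these 12 markers was at 0 in any sample, 0 of 12 were called by edgeR, and 0 by DESeq2 and limma-voom, with 1 called without LPS replicate 3. The part of neutrophil number in the levels of Ncf4 and Rac2 was not tested.

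Cyba ran against the mean log2 CPM of the airway epithelium list, with r = −0.86 (exact permutation p = 0.00250, adjusted p = 0.193), Spearman rho = −0.90 (exact permutation p = 0.00456, adjusted p = 0.176) and r = −0.84 without LPS + Tan replicates 2 and 4. Of that list 7 of 8 genes were tested and 0 called by edgeR, DESeq2 and limma-voom, with 2 called without LPS + Tan replicate 4 and 1 without LPS replicate 1, without LPS + Tan replicate 1 or 3, with upper-quartile scaling, with total counts only and without a filter. In it Scgb1a1 made up 93.9% of its summed CPM. The sum was 18707, 18981, 14311 and 13918 CPM in LPS and 13508, 15314, 12583 and 18098 CPM in LPS + Tan. This sum did not run against Cyba, since LPS replicate 1 and LPS + Tan replicate 4 were high in both. With the alveolar epithelium list Cyba had Spearman rho = 0.79 (exact permutation p = 0.0279, adjusted p = 0.538) and r = 0.68 (exact permutation p = 0.0812, adjusted p = 0.714), and r was 0.22 without those samples.

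Xdh ran against the monocyte and macrophage list, with r = −0.75 (exact permutation p = 0.0272, adjusted p = 0.523) and Spearman rho = −0.69 (exact permutation p = 0.0694, adjusted p = 0.693), and this rested on LPS replicate 4 and LPS + Tan replicate 1, since r without them was −0.17. The 11 markers of that list, of which Lyz2 made up 68.2%, summed to 3273, 3320, 2794 and 2353 CPM in LPS and 3285, 2731, 2890 and 3409 CPM in LPS + Tan. What part these cells had in the levels of Cyba and Xdh was not tested.

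Between the groups, 6 of 6 erythroid markers had lower values in LPS + Tan (median log2 fold change −0.51), 6 of 6 markers of pulmonary vein cardiac muscle higher values (0.34), and 10 of 11 monocyte and macrophage markers higher values (0.15). The median was −0.29 for B cell and 0.25 for endothelial markers. Single samples moved these medians: erythroid to −0.28 without LPS replicate 3, cardiac muscle to 0.096 without LPS + Tan replicate 3, monocyte and macrophage to 0.079 without LPS + Tan replicate 1 and 0.26 without LPS + Tan replicate 2, B cell to −0.070 without LPS replicate 1 and −0.090 without LPS + Tan replicate 4, and endothelial to 0.14 without LPS replicate 2. By edgeR 1 of 11 monocyte and macrophage markers was called higher, C1qa, a complement component of macrophages, with a log2 fold change of 0.28, and 2 of 7 endothelial markers were called higher, Kdr at 0.37 and Tek at 0.51, both growth factor receptors, beside 2.87% of all tested genes called higher. These 3 genes are named after their values were seen, each with adjusted p = 0.924 by edgeR. C1qa kept an unadjusted p below 0.05 in all alternatives. Kdr lost it without LPS replicate 1, 2 or 3 or LPS + Tan replicate 1 or 2, with an unadjusted p of up to 0.120, and with the replicate block (unadjusted p of 0.0539). Tek lost it without LPS replicate 1, 2 or 3 or LPS + Tan replicate 1, 3 or 4, with an unadjusted p of up to 0.118, and with limma-voom (unadjusted p of 0.0550) and limma on log2(FPKM + 1) or log2(FPKM + 0.1) (unadjusted p of 0.0539 and 0.0502). The number of endothelial markers called was 3 without LPS replicate 4 or LPS + Tan replicate 2, 1 without LPS + Tan replicate 3 or 4 and 0 without any other sample. The number of monocyte and macrophage markers called was 3 without LPS replicate 1, 2 without LPS + Tan replicate 2 and 4 without LPS + Tan replicate 4. Of the 7 endothelial markers 5 had higher and 2 lower values in LPS + Tan. The most abundant of them, Cdh5, made up 32.7% of their summed CPM and was lower. Its log2 fold change lay between −0.25 and −0.046 over the main fit and 18 alternatives, with an unadjusted p below 0.05 in 0 alternatives. The neutrophil, alveolar macrophage, B cell, T and NK cell, alveolar epithelium, airway epithelium, fibroblast and smooth muscle, pulmonary vein cardiac muscle and erythroid lists had 0 genes called by edgeR. For the erythroid list DESeq2 called 2 genes and limma-voom 0, and 4 of 6 were called lower without LPS replicate 2 and 1 without LPS + Tan replicate 2 or 4. With 1 sample left out the other lists of this group stayed at 0 to 2 genes called. The highest gene was Chil3 among alveolar macrophage, Cd79b among B cell, Gzma among T and NK cell, Pdgfra among fibroblast and smooth muscle, Myh6 among cardiac muscle and Hbb-bs among erythroid markers.

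Around the members, 66 further genes of oxidant production and removal were listed, of which 64 were used and 62 tested. By edgeR 2 were called higher and 2 lower in LPS + Tan, 4 of 62, beside the 5.12% of all tested genes given above. Their median log2 fold change was 0.016, with −0.028 without LPS + Tan replicate 1, −0.0084 with a filter of 1 CPM in 4 samples and 0.058 with total counts only. DESeq2 called 5 and limma-voom 3, and the count was 0 without LPS replicate 2, 2 without LPS replicate 3, LPS replicate 4 or LPS + Tan replicate 1, 9 without LPS + Tan replicate 2 and 7 without LPS + Tan replicate 4. The share of all tested genes called moved as well, to 10.2% without LPS + Tan replicate 2, 9.34% without LPS + Tan replicate 4, 4.13% without LPS replicate 2 and 3.02% without LPS + Tan replicate 1.

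Of the 4 tested catalytic subunits 1 was called. Nox1, the oxidase known from colon and vessel wall, read 0.639, 0.355, 0.575 and 0.518 CPM in LPS and 2.26, 0.203, 2.14 and 1.09 CPM in LPS + Tan, from 14 to 25 counts and from 8 to 92 counts. Of the LPS + Tan samples 3 were above all LPS samples and LPS + Tan replicate 2 was the lowest of all. Its log2 fold change was 1.45 (95% confidence interval 0.14 to 2.75), with an unadjusted p of 0.0334 and adjusted p = 0.924 by edgeR, and it was the only listed gene past the study's thresholds. The call was lost without LPS replicate 2, 3 or 4 or without LPS + Tan replicate 1 or 3, with unadjusted p of 0.0807, 0.0538, 0.0623, 0.101 and 0.0952, and it was also lost with limma-voom (1.01, unadjusted p of 0.206) and with limma on log2(FPKM + 1) (0.32, unadjusted p of 0.0607) or log2(FPKM + 0.1) (0.87, unadjusted p of 0.0999). Duox2 had a log2 fold change of 0.014, with values from −0.11 to 0.22 over 17 alternatives.

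Of 10 tested partner subunits and maturation factors 0 were called by edgeR, 0 by DESeq2 and 0 by limma-voom, with 1 called without LPS replicate 3 and 2 without LPS + Tan replicate 2. Noxo1, an organiser that pairs with Nox1, had the lowest p of those with lower values at a log2 fold change of −0.34 (unadjusted p of 0.0991). This value ranged from −0.44 to −0.21 over 18 alternatives, with an unadjusted p below 0.05 in 1 of them.

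Of 13 Rac GTPases and oxidase regulators 0 were called by edgeR, DESeq2 and limma-voom, and 1 by limma on log2(FPKM + 1). EdgeR called 2 with upper-quartile scaling, with total counts only, without a filter and without LPS + Tan replicate 4, and 1 without LPS replicate 3 or LPS + Tan replicate 3. Prkcd, a kinase that phosphorylates p47phox, came nearest with 103 to 113 CPM in LPS and 137, 164, 116 and 110 CPM in LPS + Tan. The ranges met only at LPS + Tan replicate 4, and the log2 fold change was 0.27 (95% confidence interval −0.0019 to 0.54, unadjusted p of 0.0513). The unadjusted p of Prkcd was below 0.05 in 7 of 18 alternatives. Among these, leaving out LPS + Tan replicate 3 or 4 gave an unadjusted p of 0.0344 or 0.0130. Prex1, an exchange factor for Rac that is named after its values were seen, had a log2 fold change of 0.38 with an unadjusted p of 0.0598, and was below 0.05 in 5 of 18 alternatives. Dock2, another exchange factor for Rac, had the lowest p of those with lower values, at −0.12 (unadjusted p of 0.510). Its sign was not stable, with values from −0.22 to 0.043 over 18 alternatives.

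Among 4 tested peroxidases and other oxidant enzymes of leukocytes 1 was called. Nos2, the inducible nitric oxide synthase, read 74.9, 111, 109 and 81.1 CPM in LPS and 36.6, 71.0, 41.4 and 82.6 CPM in LPS + Tan. In LPS + Tan 3 samples were below all LPS samples, and LPS + Tan replicate 4 was inside their range. The log2 fold change was −0.70 (95% confidence interval −1.27 to −0.13), with an unadjusted p of 0.0211 and adjusted p = 0.924 by edgeR. Without LPS replicate 2, LPS replicate 3 or LPS + Tan replicate 3 the unadjusted p was 0.0573, 0.0531 and 0.0600.

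Of 10 genes of purine breakdown, Xdh among them, 0 were called by edgeR, 1 by DESeq2 and 0 by limma-voom, with 2 called by the replicate block or without LPS + Tan replicate 4 and 1 without LPS replicate 1 or LPS + Tan replicate 1, 2 or 3. Nt5e, which makes extracellular adenosine, had the lowest p of those with higher values, at a log2 fold change of 0.17 (unadjusted p of 0.385). Its log2 fold change ranged from 0.0077 to 0.32 over 18 alternatives, with an unadjusted p below 0.05 in 1 of them.

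Of 14 genes that remove superoxide and peroxide 1 was called higher and 1 lower. Sod1, the cytosolic superoxide dismutase, read 169, 174, 157 and 160 CPM in LPS and 203, 172, 177 and 243 CPM in LPS + Tan. Sod2, the mitochondrial superoxide dismutase, read 358, 389, 516 and 340 CPM in LPS and 294, 332, 245 and 360 CPM in LPS + Tan. For Sod1 only LPS + Tan replicate 2 reached into the LPS range, and for Sod2 LPS + Tan replicate 4 did. The log2 fold changes were 0.27 for Sod1 (95% confidence interval 0.015 to 0.52, unadjusted p of 0.0402) and −0.38 for Sod2 (95% confidence interval −0.73 to −0.029, unadjusted p of 0.0368), each with adjusted p = 0.924 by edgeR. Sod1 lost its call without any of LPS replicates 1 to 4 or LPS + Tan replicates 1 and 4, with an unadjusted p of up to 0.0889, and Sod2 without LPS replicate 2 or 3 or LPS + Tan replicate 1 or 3, with an unadjusted p of up to 0.122. With the replicate block the unadjusted p was 0.0666 for Sod1 and 0.0794 for Sod2.

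Of 14 receptors and adaptors that start the oxidative burst 0 were called by edgeR, DESeq2 and limma-voom, with 1 called without LPS + Tan replicate 2, and their median log2 fold change was 0.077, which turned to −0.056 without LPS + Tan replicate 1 and −0.0060 without LPS replicate 2. Tlr4, the LPS receptor, had the lowest p of those with lower values, at −0.16 (unadjusted p of 0.128), and C5ar1, the receptor for complement C5a, of those with higher values, at 0.25 (unadjusted p of 0.229). Over 18 alternatives Tlr4 ranged from −0.23 to −0.10, with an unadjusted p below 0.05 in 1, and C5ar1 from 0.053 to 0.40.

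Over the 8 samples, the genes whose log2 CPM followed a member most closely were taken from 13735 genes as a description. For Cybb they were Slc9a5, Cog6, LOC118568402 and Zfp148, with a likeness (Pearson coefficient) of 0.96, 0.96, 0.95 and 0.95. For Nox4 they were Babam1, Gabarapl1, Cyp4b1 and Rtp3, at 0.97, 0.97, 0.96 and 0.96. For Xdh they were Tnfaip2, Sectm1a, Spryd7 and Casp12, at 0.98, 0.97, 0.97 and 0.97. A likeness above 0.9 was reached by 19 genes for Cybb, 45 for Nox4 and 97 for Xdh. How many of the 13735 genes would reach it by chance over 8 samples was not tested.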

How the data were processed

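Total RNA of 8 lung samples was sequenced, and groups and replicate numbers were taken from the labels. The labels name a column kit and another library kit than the study's methods, which name TRIzol. The authors deposited whole-number read counts per gene, without normalization, and a table of FPKM, counts divided by gene length and library total. The submitters' processing notes name GRCm38 and mm10.

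Counts were filtered with filterByExpr, scaled by TMM and fitted with edgeR 4.0.16 (quasi-likelihood test, R 4.3.3), without a block, adjusting over 15706 genes by Benjamini-Hochberg. CPM used the scaled library sizes. Alternatives used DESeq2 1.42.0, limma 3.58.1, other scalings and filters, a replicate block and each sample left out. The procedure was tested on simulated data. Correlations used log2 CPM with a prior count of 1 and 40320 pairings. Duox1 did not pass the filter, so 21 and not 28 pairs were formed.

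The members and lists were chosen with earlier results of these data known. Named were all members, listed genes with an unadjusted p below 0.05 or else the lowest p in each direction, the most abundant marker of each list, and the 4 genes most like Cybb, Nox4 and Xdh.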

Additional observations from a re-analysis of the deposited data

Results flagged for a closer look

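Of 42 groups of 4 samples compared, for the CPM of the members, the shares of Cybb and Nox4 in the catalytic subunits and the summed marker lists, 1 had a sample far from the others. In the LPS group the summed CPM of the pulmonary vein cardiac muscle markers was 138, 140 and 141 in replicates 1 to 3 and 186 in replicate 4, a gap of 0.943 of the whole range, which is past the 95% critical value of Dixon's test. By chance about 1 in 20 groups passes that critical value. No member of the oxidase genes had a sample past that value.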

How the results depend on the processing

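Over 18 alternatives for each of the 7 tested members, the log2 fold change kept its direction and its side of an unadjusted p of 0.05 in 110 of 126 cases, turned its sign in 11 and came below that p in 5. Nox4 kept both but had the widest range with 1 sample left out, 0.030 to 0.46. Rac2 was 0.026 with total counts only and 0.019 with limma on FPKM at either added constant, and ranged from −0.13 to 0.097 with 1 sample left out. The same ranges were −0.27 to −0.017 for Cybb, −0.11 to 0.0029 for Cyba, −0.14 to 0.021 for Ncf1 and −0.033 to 0.16 for Ncf4. The number of members called was 1 instead of 0 with DESeq2 (beside 4.41% of all genes) and 1 with the replicate block (beside 5.26%), Xdh both times, and 0 to 1 with 1 sample left out (Xdh or Cybb, beside 3.02 to 10.2%). The other pathway genes called were 7 instead of 4 with total counts only and 0 to 9 with 1 sample left out. Over all genes, 480 to 1626 were called with 1 sample left out (480 without LPS + Tan replicate 1, 1626 without LPS + Tan replicate 2, 1488 without LPS + Tan replicate 4), instead of 804. DESeq2 gave 35 genes with an adjusted p below 0.05, 0 of them members. The cause of these shifts was not tested. Whether the replicate numbers pair the samples is not known. Same-numbered samples correlated at 0.12, −0.026, −0.14 and 0.018 in their deviations from the group means. For 0 of 4 numbers were the same-numbered samples each other's best match. With 4 samples per group this cannot settle whether samples were handled in pairs. The replicate block changed no call of another member. The order of levels was the same in TPM, which divides the FPKM of a sample by their sum. That step cannot change the order within a sample, so this is no separate check. With 4 samples per group the intervals are wide, and Duox1 had too few counts for the filtered fits.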
